A study of Mus musculus with 29 samples.

Results

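Snd1, Gm13849, Slc15a2, Rnf157, Gpsm1, Cdk5rap1 and Mecom are genes of mouse lung DNA with a window whose methylation differed widely between libraries of the same group. The 7 genes were chosen by the pooled within-group standard deviation (SD) of their windows, so the size of that spread is a description and carries no test. They hold 278 of the 260686 windows of the table (87 in Snd1, 24 in Gm13849, 7 in Slc15a2, 27 in Rnf157, 11 in Gpsm1, 9 in Cdk5rap1 and 113 in Mecom), out of 39260 gene names. All 278 had at least 3 values in each group and were among the 259167 windows tested on this minimum. The choice was not exhaustive, because 40 autosomal windows with a value in every library had a pooled SD at or above that of the Mecom window, and they carry 35 gene names, 28 of them outside the 7. Next above the Mecom window (10.1 points, where a point is 1 percent methylation) stood a window at 10.3 points, and next below it one at 10.1 points. The highest autosomal pooled SD outside the 7 genes was 25.3 points at Capn11 (chr17:45645789-45648504).

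The study profiled lung DNA of inbred BALB/c mice by whole-genome methyl-sequencing (WGMS), an assay that reads out methylation after enzymatic conversion of unmethylated bases. The libraries came from offspring described as female and 13 weeks old, and fell into 7 Sham, 7 Sham-OVA, 7 PM and 8 PM-OVA. Sham offspring came from saline-treated dams and PM offspring from dams given fine particulate matter (PM2.5), whereas OVA marks offspring sensitised to and then challenged with ovalbumin to induce allergic airway disease. The labels name PBS for the unchallenged offspring, and the study's methods nebulised saline. Each value is a percent methylation (%DNAm) over a window of 100 CpG cytosines, and since the table carries no coverage the depth of any 1 value is unknown.

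In mammals, most copies of retrotransposons are kept methylated, and a minority of young retroviral copies take a methylation level that differs between genetically identical animals. Such loci are called metastable epialleles when the level is set early in development and then shared by the tissues of an animal. The agouti viable yellow allele, caused by an intracisternal A particle (IAP) insertion, is the best-known case, and Cdk5rap1 carries another in the literature. Tissues other than lung were not analysed here, so whether the levels below are shared between tissues was not tested.

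Among the 7 genes, Snd1 encodes a nuclease-fold and Tudor-domain protein of transcription and RNA silencing, and Slc15a2 a proton-coupled peptide transporter. Rnf157 encodes a RING-type ubiquitin ligase, Gpsm1 a modulator of heterotrimeric G proteins, and Cdk5rap1 an enzyme that modifies mitochondrial transfer RNA. Mecom encodes zinc finger transcription factors of blood stem cells, and Gm13849 is a gene model named by its number only.

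The most variable windows were wholly intronic. Against GENCODE M21, each of the 7 windows had 0 exonic bases, 0 untranslated bases and 0 bases within 2000 bp upstream of a gene start, and lay inside the gene it was named for. On GRCm38 the windows were chr6:28924946-28928455 (Snd1, plus strand gene), chr6:31803403-31805225 (Gm13849, plus), chr16:36769001-36771824 (Slc15a2, minus), chr11:116389771-116390969 (Rnf157, minus), chr2:26337272-26339424 (Gpsm1, plus), chr2:154354771-154357875 (Cdk5rap1, minus) and chr3:30030597-30031338 (Mecom, minus, where Mecomos also overlaps). Window centres lay 14550 bp (Slc15a2) to 517041 bp (Mecom) from the annotated gene start.

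In 6 of the 7 genes the variable window overlapped an element with the build of a retroviral insertion. In the reference genome (C57BL/6J, GRCm38.p6) these elements were 5180 to 5330 bp long and were bounded by direct repeats of 356 to 398 bp, and the repeat at one end of each element equalled the repeat at its other end with 0 mismatches. Between genes the repeats were 86.3% to 96.2% identical over the 15 pairs. The element fills 100% of the most variable window in Snd1, Rnf157 and Cdk5rap1, 67.8% in Gm13849, 55.9% in Gpsm1 and 47.9% in Slc15a2, where the steadier neighbour holds more of it (3940 against 1352 bases). The elements lie at chr6:28924175-28929354 in Snd1, chr6:31799370-31804638 in Gm13849, chr16:36765055-36770352 in Slc15a2, chr11:116389405-116394709 in Rnf157, chr2:26333221-26338475 in Gpsm1 and chr2:154354263-154359592 in Cdk5rap1. No such pair of repeats was found around the Mecom window. The repeat family was not determined, since no repeat annotation was used, and whether the BALB/c genome of these mice carries each element was not tested.

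The start of the repeat at one end of the element, called end A here, is shown for Snd1 (chr6:28929195-28929354, minus strand) and Cdk5rap1 (chr2:154354263-154354422, plus strand), because it is what the 6 genes share. The Mecom sequence is the 160 bases of its window richest in CpG (chr3:30030668-30030827, plus strand), shown as the exception. Capitals mark CpG dinucleotides.
Snd1 end A: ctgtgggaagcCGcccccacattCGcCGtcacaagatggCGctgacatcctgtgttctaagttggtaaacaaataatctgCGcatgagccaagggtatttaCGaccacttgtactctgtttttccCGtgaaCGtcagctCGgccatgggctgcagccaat
Cdk5rap1 end A: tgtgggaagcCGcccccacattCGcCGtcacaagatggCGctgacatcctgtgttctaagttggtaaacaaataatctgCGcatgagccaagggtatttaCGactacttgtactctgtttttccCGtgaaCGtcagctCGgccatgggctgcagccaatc
Mecom: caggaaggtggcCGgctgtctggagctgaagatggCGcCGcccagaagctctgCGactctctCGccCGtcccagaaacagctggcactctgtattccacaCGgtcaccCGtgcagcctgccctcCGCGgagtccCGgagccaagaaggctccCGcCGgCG

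Each of the 6 repeats had 9 CpGs in these first 160 bases. Read in this direction, the element lay on the strand opposite to the gene in 5 genes and on the same strand in Slc15a2 only. CpGs were denser on the end A side of each element, with 74 to 76 against 56 to 60 beyond its midpoint. The Mecom window differed from the rest in sequence, with 66.6% GC and a tandem repeat of 205 bp, at which 71.1% of bases matched the base 1 period on.

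The variable window overlapped the end A side of the element in each of the 6 genes, and at Snd1 and Cdk5rap1 it also ran past the midpoint. Measured from the outer edge of end A, the bases from position 900 to position 1204 fell in the most variable window of all 6 genes on the percent scale. On a scale of log2 ratios of the methylated to the unmethylated percentage, the most variable windows of Snd1 and Gpsm1 were others that hold none of these bases. The same held at Gpsm1 without PM-OVA replicate 7. This stretch of 305 bases lies inside the element beyond the terminal repeat and held 8 to 15 CpGs. It is printed for Snd1 (chr6:28928256-28928455, minus strand), the gene with the highest pooled SD of the 7, over its first 200 bases with CpGs in capitals.
Snd1 inside end A: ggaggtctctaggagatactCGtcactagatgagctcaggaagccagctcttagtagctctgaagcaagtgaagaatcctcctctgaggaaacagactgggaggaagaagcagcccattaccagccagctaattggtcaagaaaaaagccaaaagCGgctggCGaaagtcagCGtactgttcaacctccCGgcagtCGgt

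Over this stretch the identity between genes ranged from 45.2% to 93.9% (15 pairs), with Snd1 in the 5 lowest pairs. The stretch was cut at fixed distances from end A, and the same sequence starts at different positions in different genes. Low values, as at Snd1, therefore mix this shift with differences between matching bases. The window with most of the repeat at the other end is given by its SD only, because the most variable window was chosen for its high SD. Much of this other window is flanking sequence in some genes. This window had an SD of 4.15 points in Snd1, 2.61 in Gm13849, 3.28 in Slc15a2, 3.76 in Rnf157 and 4.40 in Cdk5rap1, whereas Gpsm1 had 10.04 points there against 11.2 at end A. The element fills 32.0%, 6.04%, 53.7%, 79.1%, 43.7% and 76.3% of these windows, in the same order. At Gm13849 the second variable window (SD 16.0 points) lies wholly in the element and reaches 13 bases into the repeat at that end. In Rnf157 and Cdk5rap1 the repeat at end A itself lay mostly in a steadier window (SD 2.95 and 4.31), of which the element fills 12.8% and 28.7%. Window edges follow the CpG count and not the element, so the boundary of the variable stretch cannot be placed more finely than the windows.

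**Figure D1:**
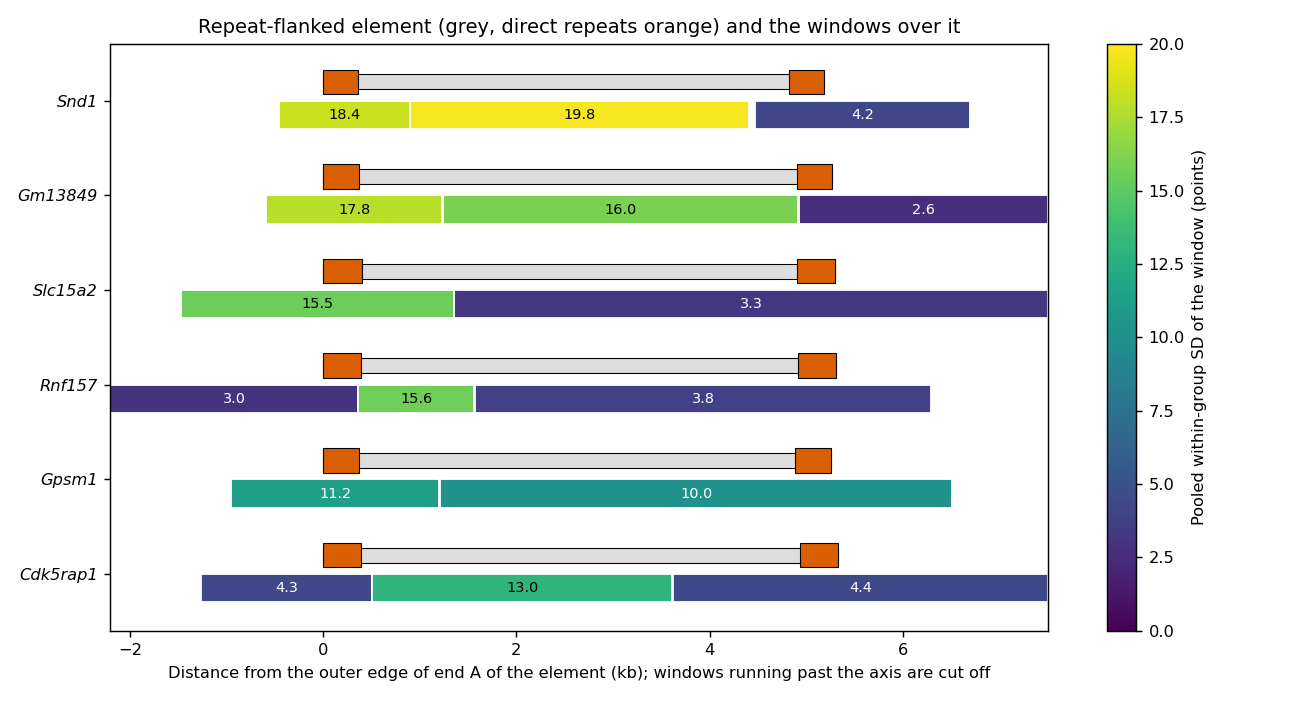
Elements of 6 genes drawn to scale in kb from the outer edge of end A (grey bar, terminal direct repeats in orange), with the windows over them coloured and labelled by pooled within-group SD in points. On the percent scale, the most variable window (11.2 to 19.8 points) includes the stretch near 1 kb from end A in each gene.

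Most sequence of these windows occurs more than once in the genome, and so could give reads with more than 1 placement. Of the 100-base stretches of a window, 100% had a further copy elsewhere in Snd1, Cdk5rap1 and Mecom, 91.5% in Gm13849, 88.0% in Rnf157, 86.1% in Gpsm1 and 75.7% in Slc15a2. The part of read placement in the spread was not tested. Soft-masked (repeat) bases made up 56.9% (Gpsm1) to 100% (Rnf157, Cdk5rap1 and Mecom) of the windows, against a median of 22.5% over all tested windows, and CpG density was 21.1 to 71.4 per kb against a median of 10.6.

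The libraries covered a wide and continuous range at each gene. Over all 29 libraries Snd1 ran from 2.31% to 69.2% (median 23.1%), with a pooled SD of 19.8 points, and 10 libraries were under 20%. Gm13849 ran from 14.7% to 88.5% (median 45.8%, SD 17.8). Slc15a2 ran from 38.6% to 88.3% (median 70.1%, SD 15.5). These 3 windows thus spanned 49.7 to 73.7 points between mice of 1 inbred strain.

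Rnf157 ran from 43.3% to 97.8% (median 73.9%, SD 15.6), and 13 libraries were over 80%. Cdk5rap1 ran from 31.7% to 77.2% (median 56.2%, SD 13.0), and Gpsm1 from 38.4% to 75.9% (median 52.0%, SD 11.2). Mecom, the steadiest of the 7, ran from 55.9% to 95.2% (median 77.9%, SD 10.1), and 12 libraries were over 80%. All libraries lay between 20% and 80% at Gpsm1 and at Cdk5rap1, so the intermediate means of these genes are intermediate levels in each library and not a mixture of fully methylated and unmethylated libraries.

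Gaps and shape were used to look for modes. The largest gap between neighbouring libraries was 12.02% (Gpsm1) to 20.7% (Rnf157) of the gene's whole range, and where it was largest it set off 2 low libraries (Rnf157) or 1 high library (Gm13849). The bimodality coefficient, computed from skewness and kurtosis, was 0.6253 at Slc15a2, 0.622 at Snd1 and 0.582 at Gpsm1, above that of a uniform distribution, and 0.437 to 0.508 at the other 4 genes, below it. A skewed single peak also raises this coefficient. Cutting each range in 3 equal parts, Snd1 had 16 libraries in the lowest part, 6 in the middle and 7 in the highest, and Gpsm1 had 14, 8 and 7, so both leaned to their low end. Slc15a2 (9, 8 and 12), Rnf157 (7, 9 and 13) and Mecom (7, 11 and 11) leaned to the high end, whereas the middle part held more libraries than either other part at Gm13849 (8, 15 and 6) and Cdk5rap1 (6, 13 and 10).

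Against the rest of the table these values stand at its edge, as the choice required. The median pooled SD of the 259167 tested windows was 1.49 points and the 99th percentile 4.58 points. A pooled SD of at least 10 points was found in 127 windows (0.0490%), and 10 of these belong to the 7 genes. Among autosomal windows with a value in all libraries, Snd1 ranked 2, Gm13849 4, Rnf157 9, Slc15a2 10, Cdk5rap1 19, Gpsm1 28 and Mecom 40. When 1 library was left out in turn, the SDs kept within 18.1 to 20.2 points at Snd1 and within 8.89 to 10.3 points at Mecom, and the same window was the most variable in all 29 cases for 6 genes and in 28 for Gpsm1.

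The 4 groups overlapped at every one of the 7 windows. At Snd1 the lowest, median and highest libraries were 9.46%, 15.8% and 67.5% in Sham, 13.3%, 29.9% and 69.2% in Sham-OVA, 11.4%, 23.1% and 42.3% in PM, and 2.31%, 46.6% and 67.4% in PM-OVA. At Gm13849 they were 14.7%, 32.7% and 68.8% in Sham, 23.9%, 40.5% and 74.4% in Sham-OVA, 38.1%, 46.2% and 88.5% in PM, and 22.1%, 56.9% and 74.2% in PM-OVA. At Slc15a2 they were 39.6%, 70.1% and 76.3% in Sham, 47.8%, 53.6% and 80.5% in Sham-OVA, 42.7%, 76.6% and 81.5% in PM, and 38.6%, 57.8% and 88.3% in PM-OVA. Each group spanned over 30 points at these genes, and PM at Snd1, with no library above 42.3%, had the narrowest span of the 4 groups there.

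At Rnf157 the lowest, median and highest libraries were 43.3%, 78.1% and 94.5% in Sham, 60.6%, 73.9% and 93.5% in Sham-OVA, 62.9%, 83.9% and 97.8% in PM, and 55.4%, 63.0% and 89.1% in PM-OVA. At Gpsm1 they were 47.7%, 49.98% and 72.9% in Sham, 42.1%, 58.9% and 73.7% in Sham-OVA, 38.4%, 50.03% and 74.7% in PM, and 39.1%, 47.7% and 75.9% in PM-OVA. At Gpsm1 the highest library of each group stood at nearly the same level. At Cdk5rap1 they were 39.3%, 56.2% and 70.8% in Sham, 31.7%, 54.8% and 77.2% in Sham-OVA, 48.9%, 56.2% and 70.3% in PM, and 34.7%, 55.3% and 72.6% in PM-OVA. At Mecom they were 64.9%, 75.6% and 88.8% in Sham, 68.6%, 81.5% and 90.7% in Sham-OVA, 60.6%, 70.8% and 88.4% in PM, and 55.9%, 84.6% and 95.2% in PM-OVA.

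**Figure D2:**
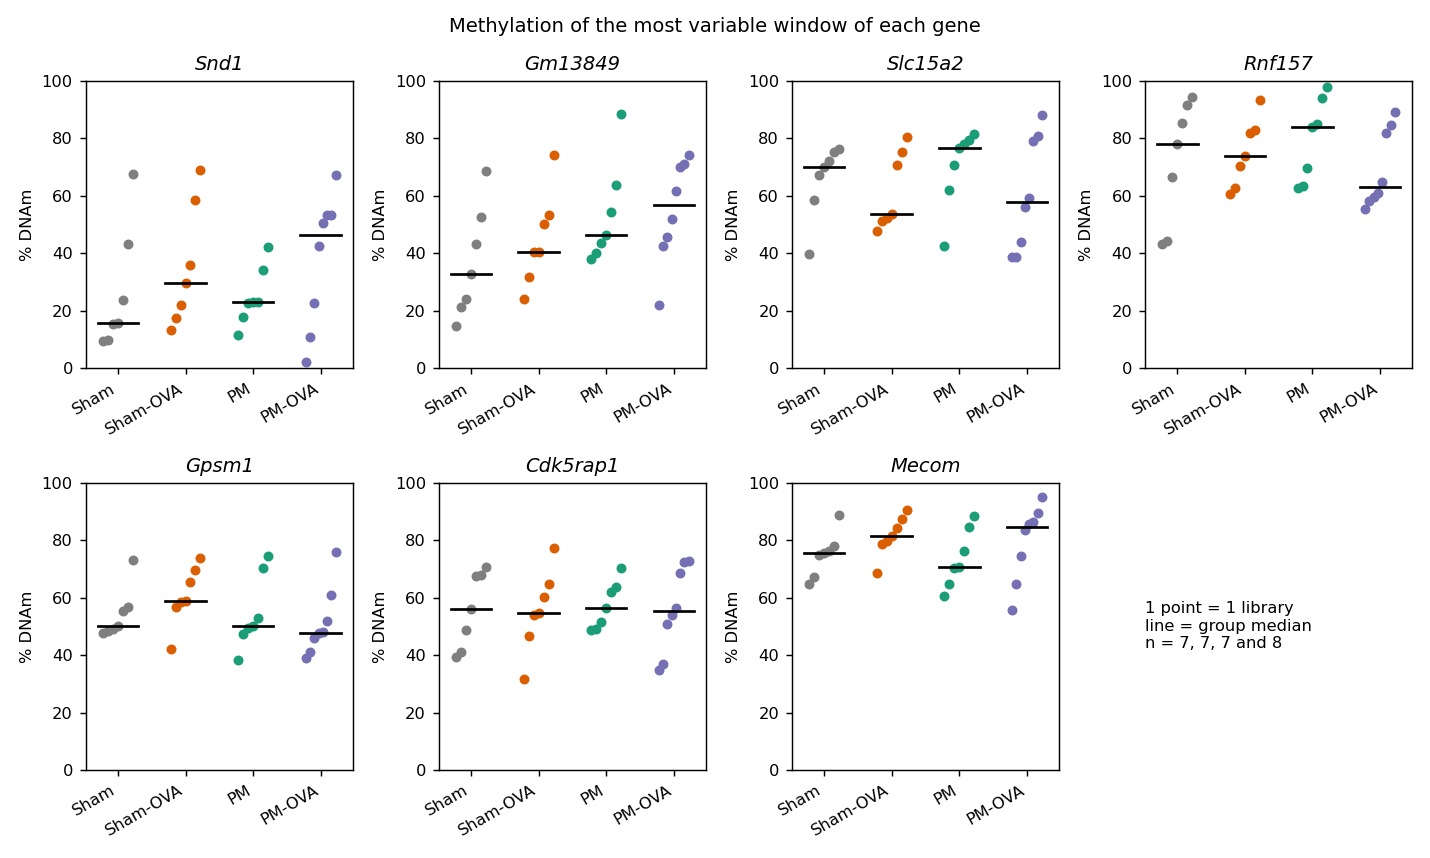
Percent methylation (y axis, 0 to 100%) of the most variable window of each gene in the 4 groups, with 1 point per library and a line at the group median. The 4 groups overlap at each gene, and Snd1 covers the lowest levels (2.31% to 69.2%).

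Whether OVA or maternal PM2.5 moved these windows was tested with limma over all windows, a linear model on log2 ratios of the methylated to the unmethylated percentage that shares information on spread between windows. No most variable window was called in any of the 4 contrasts of groups or in their interaction. The largest difference at Snd1 was 13.0 points higher in PM-OVA than in PM (95% interval -8.16 to 34.1) and at Gm13849 16.7 points higher in PM than in Sham (-2.91 to 36.4). In PM-OVA minus PM, the difference was -9.55 points at Slc15a2 (-26.0 to 6.95), -10.2 points at Rnf157 (-26.8 to 6.44) and -1.58 points at Cdk5rap1 (-15.4 to 12.3). At Gpsm1 it was -9.44 points in PM-OVA minus Sham-OVA (-21.4 to 2.52), and Mecom was 6.48 points higher in Sham-OVA than in Sham (-4.60 to 17.5). By exact 2-sided permutation tests the smallest p of the 28 differences was 0.117 (Gm13849, PM against Sham), and adjusted p-values were 0.978 or more. With 1 library left out the difference ran from 10.9 to 22.1 points at Gm13849 (lowest without PM replicate 3), and that at Snd1 from 8.76 to 18.1, at Slc15a2 from -14.1 to -6.40, at Rnf157 from -13.0 to -7.17, at Gpsm1 from -13.0 to -7.28 and at Mecom from 4.78 to 8.76. Every one of the 7 intervals includes 0, and differences of about 10 points were not detectable at windows this variable.

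The spread itself was also compared between arms. The choice of genes used the same deviations, pooled over the 4 groups without regard to arm, so these tests are not independent of it. The mean absolute deviation from the group median at Snd1 was 17.1 points in OVA-challenged and 10.5 points in unchallenged libraries (permutation p = 0.227). At Mecom it was 8.77 points in PM and PM-OVA together and 5.12 points in Sham and Sham-OVA together (permutation p = 0.165, the lowest of the 14 tests). No test passed, with adjusted permutation p-values of 0.898 or more over the 14 tests.

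The spread was confined to 1 or 2 adjoining windows among the 5 windows on either side, taking 5 points as the limit. Snd1 had a second window at 18.4 points (chr6:28928456-28929811, mean 23.9%), Gm13849 one at 16.0 points (chr6:31799724-31803402, mean 55.5%) and Gpsm1 one at 10.04 points (chr2:26331968-26337264, mean 79.3%). All 3 lie over the same element as the most variable window. In Slc15a2, Rnf157, Cdk5rap1 and Mecom only the most variable window passed 5 points. The other windows of each gene had a median SD of 1.20 (Cdk5rap1) to 1.81 points (Gm13849), near the 1.49 points of all tested windows. At Snd1 a further window, nearer the gene's start (chr6:28529655-28532675), had an SD of 5.24 points.

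**Figure D3:**
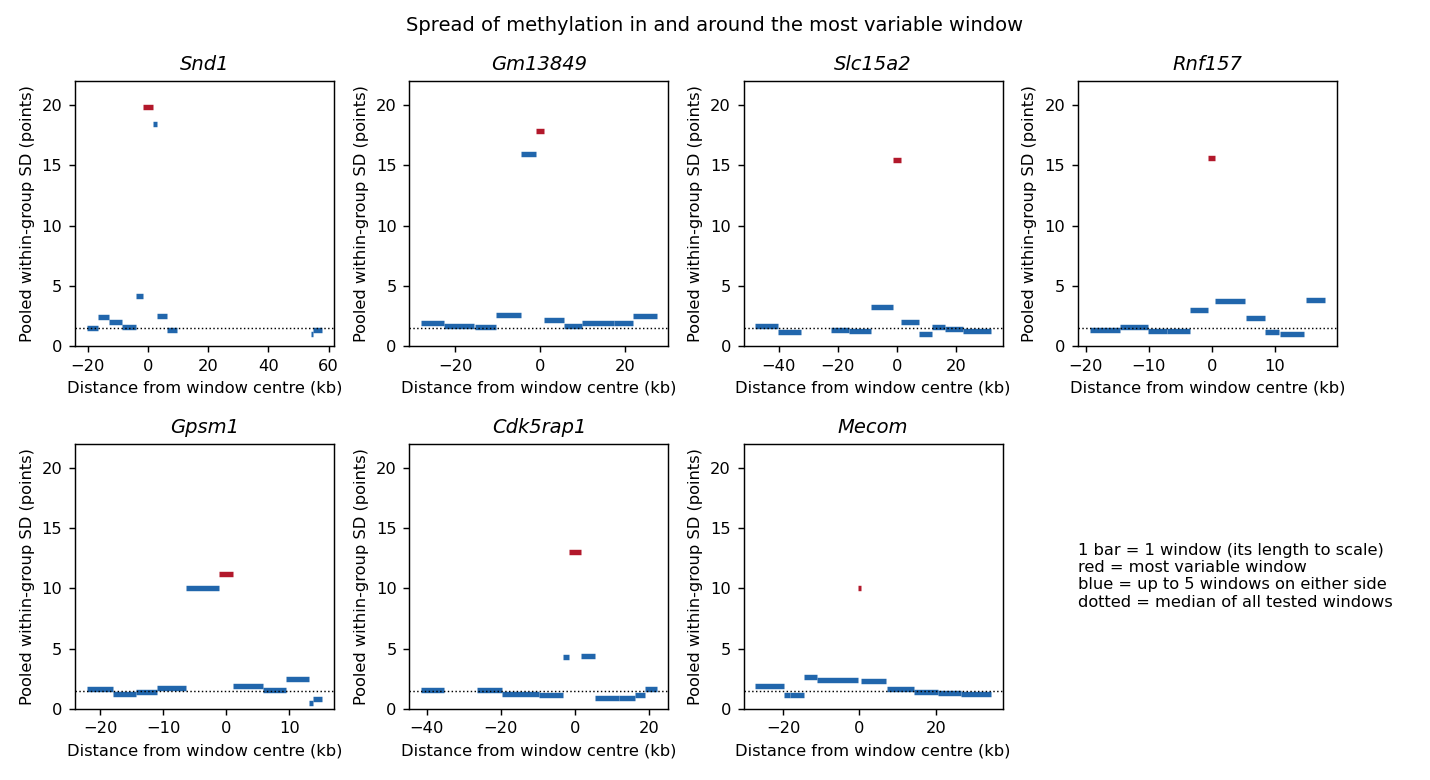
Pooled within-group SD in points (y axis) of the most variable window of each gene (red) and up to 5 windows on either side (blue), by distance in kb from its centre, with each bar as long as its window and a dotted line at the median of all tested windows (1.49 points). The spread falls under 5 points beyond 1 or 2 adjoining windows.

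Neighbouring windows were related at Snd1, Gm13849 and Slc15a2 on both scales tried and without any 1 library. The calls at Rnf157, Gpsm1 and Cdk5rap1 were lost on the log ratio scale, where r was 0.447, 0.442 and 0.408. Deviations from the group mean were correlated over the 29 libraries, with libraries permuted within groups and adjustment over 14 pairs. The neighbour of the Snd1 window toward the higher coordinate had r = 0.782 (rho = 0.762, permutation p = 1e-05, adjusted p = 7e-05, r = 0.735 without the 2 farthest libraries), and the Gm13849 neighbour toward the lower coordinate had r = 0.757 (rho = 0.739, adjusted permutation p = 7e-05, r = 0.703 without 2). That p is the smallest the 100000 permutations can give. The Gpsm1 neighbour on the same element had r = 0.480 (rho = 0.459, adjusted permutation p = 0.042, r = 0.462 without 2), and passed in 17 of 30 settings (the log ratio scale and each library left out).

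Among the nearest neighbours tested, the relation reached past the element in Slc15a2. The steady neighbour toward the higher coordinate (SD 1.96 points) had r = 0.635 (rho = 0.608, adjusted permutation p = 0.00145, r = 0.623 without 2). The element ends within the most variable window there, so that neighbour holds none of it, whereas the neighbour on the element had r = -0.163 and missed the threshold. The Rnf157 neighbour with the other end of the element had r = 0.545 (rho = 0.487, adjusted permutation p = 0.0186, r = 0.445 without 2), and lost the call without Sham replicate 7. For Cdk5rap1 r was 0.412 toward the higher coordinate (adjusted permutation p = 0.0498), but rho was 0.369 with an adjusted permutation p of 0.107, and the relation passed in 8 of the 30 settings. Both neighbours of Mecom missed the threshold, with r of -0.0225 and 0.243.

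A neighbour of Snd1 moved the other way. The window toward the lower coordinate (chr6:28922657-28924889, SD 4.15 points, range 75.9% to 93.4%), which holds the other end of the element, had r = -0.665 (rho = -0.661, adjusted permutation p = 0.00161, r = -0.578 without 2), so that libraries high at the most variable window were lower there. At Gm13849 the window with the other end of the element, named for Gm43154 (chr6:31794020-31799713, SD 2.61 points), had r = -0.511, given without a test because it is not the nearest neighbour. A Gm13849 window off the element and 24.6 kb away (chr6:31826076-31831742, SD 2.51 points) had r = 0.698. That was the highest r of 270 windows within 1 Mb, and it was not tested.

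No relation between genes passed the test. For the 21 pairs of genes r ranged from -0.543 to 0.311 (median -0.0352), and 0 pairs had an adjusted permutation p under 0.05. The lowest was Gm13849 with Slc15a2 (r = -0.543, rho = -0.489, permutation p = 0.00421, adjusted p = 0.0884, r = -0.481 without 2), the 1 pair with an unadjusted p under 0.05. It passed when either of 2 single libraries was left out, with adjusted permutation p = 0.0412 without Sham-OVA replicate 1 and 0.0315 without PM-OVA replicate 6. For Snd1 with the other 6 genes r was -0.121 to 0.311.

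Windows elsewhere that followed a member most closely are given as a description, out of 7469 to 7493 windows over 1 Mb away with an SD of at least 3 points. They were Gm38194 for Snd1 (r = 0.678), C530008M17Rik for Gm13849 (0.712), Galnt6 for Slc15a2 (0.685), Gm36329 for Rnf157 (0.630), Gm4903 for Gpsm1 (0.636), Tcp10a for Cdk5rap1 (0.692) and Erdr1 on the X chromosome for Mecom (0.725). Of these, Gm38194 shared 1710 words of 25 bases with the Snd1 window, and the other 6 pairs shared 0.

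Other copies of the terminal repeat were mostly methylated, and more variable than windows without it. Words of 25 bases found in the repeats of at least 2 elements marked 240 copies in the genome, and 101 tested windows (0.0390%) held at least 100 such words. Of these, 11 belong to the 7 genes and 90 to 57 other genes. The 90 windows had a median SD of 3.32 points and a median methylation of 83.8%, against a median SD of 1.49 points in windows without the repeat. Among them 6 (6.67%) had an SD of at least 10 points, against 0.0490% of all tested windows, with Kcnh6 (17.03 points, mean 51.5%) and Gfod1 (16.3 points, mean 85.9%) highest. From the other side, 11 of the 127 windows with an SD of at least 10 points (8.66%) held at least 100 such words. The 127 include windows that are not autosomal or lack a value in some library. The Mecom window ranked 122 among all tested windows, but 40 among autosomal windows with a value in every library. The share among autosomal windows alone was not computed.

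Within the 7 genes the windows that hold the repeat were themselves unequal. Of the 11, those with an SD of at least 10 points were the second window of Snd1, the most variable windows of Gm13849, Slc15a2 and Gpsm1, and the second window of Gpsm1, whereas the other 6 had 2.95 to 4.40 points. The most variable windows of Snd1, Rnf157 and Cdk5rap1 lie inside the element and hold fewer than 100 words of the repeat. Mean methylation was 23.9% to 79.3% in the 5 variable windows and 71.1% to 91.1% in the 6 steadier ones.

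**Figure D4:**
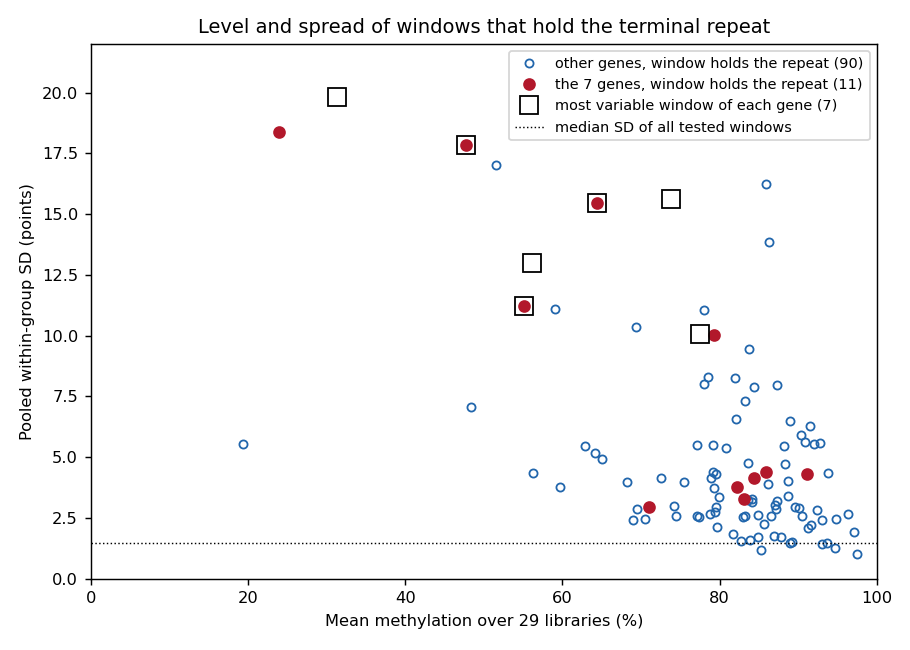
Pooled within-group SD in points against mean methylation in percent for the 101 windows that hold the terminal repeat, in the 7 genes (filled) and in other genes (open). Boxes mark the most variable window of each gene, of which 3 hold the repeat (Gm13849, Slc15a2 and Gpsm1, filled) and 4 hold fewer than 100 of its words (empty boxes), and the dotted line is the median SD of all tested windows. Most copies in other genes sit at high methylation and below the variable windows of the 7 genes (medians 83.8% and 3.32 points).

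Away from the most variable windows, 1 window of Mecom and 1 of Rnf157 were called for OVA challenge, a share close to that over all windows. A window was called a differentially methylated region (DMR) at a limma adjusted p under 0.05 and a difference of at least 10 points, and 2 of the 278 windows were called for OVA in Sham (Sham-OVA minus Sham, background 0.775% of all tested windows) and the same 2 for OVA in PM (PM-OVA minus PM, background 0.584%). In bulk tissue, a change of cell types and a change within cells cannot be told apart.

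The Mecom DMR, in an intron (chr3:30217112-30220718), gained methylation after OVA. Its libraries were at 43.0% to 51.4% in Sham (median 46.6%), 53.0% to 69.5% in Sham-OVA (59.8%), 45.5% to 53.8% in PM (50.01%) and 54.6% to 63.7% in PM-OVA (61.8%). All OVA-challenged libraries were above all unchallenged ones of the same arm. The rise was 12.3 points in Sham offspring (limma adjusted p = 4.07e-05) and 10.2 points in PM offspring (adjusted p = 0.000176). In PM offspring the rise was 9.53 to 10.998 points with 1 library left out, and fell under the 10-point minimum without any 1 of 7 libraries (PM replicates 2 and 5 and PM-OVA replicates 1, 3, 5, 7 and 8).

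The Rnf157 DMR, also intronic (chr11:116405360-116408401), lost methylation. Its libraries were at 82.7% to 89.3% in Sham (median 85.7%), 68.9% to 82.2% in Sham-OVA (72.3%), 83.3% to 88.5% in PM (87.5%) and 62.9% to 79.9% in PM-OVA (72.7%). Here too no OVA-challenged library overlapped the unchallenged ones of its arm. The fall was -11.6 points in Sham offspring (limma adjusted p = 8.44e-06) and -14.1 points in PM offspring (adjusted p = 2.29e-07).

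**Figure D5:**
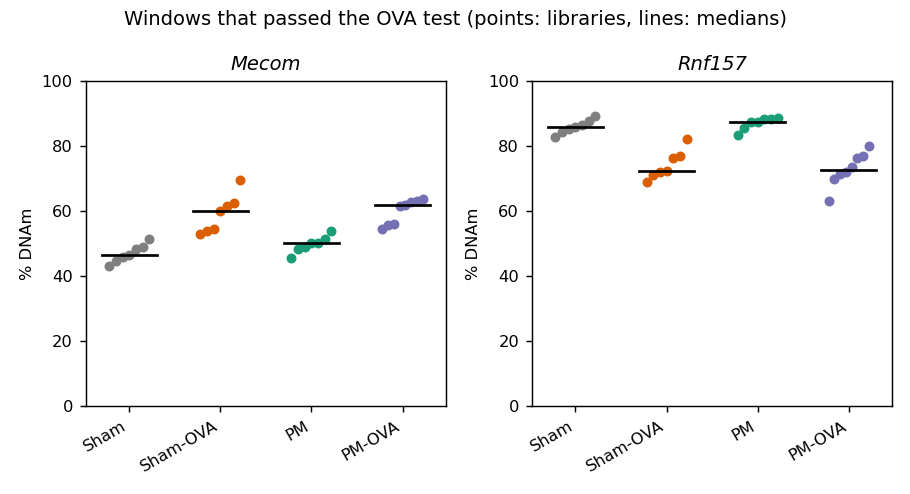
Percent methylation (y axis, 0 to 100%) of the intronic Mecom and Rnf157 windows that passed the OVA test in the 4 groups, with 1 point per library and a line at the group median. Within each arm, all OVA-challenged libraries are higher than the unchallenged ones at Mecom (53.0% to 69.5% against 43.0% to 51.4% in Sham offspring) and lower at Rnf157 (68.9% to 82.2% against 82.7% to 89.3%).

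Smaller OVA differences were as frequent in the 7 genes as over all windows. Without a minimum size, 98 of the 278 windows passed for OVA in Sham (background 35.6%), of which 44 were higher, and 126 for OVA in PM (background 44.1%), of which 33 were higher. These are 35.3% and 45.3% of the 278. Higher calls made up 44.9% and 26.2% of them, against 37.3% and 21.02% of the calls over all tested windows. The direction within single genes is given as counts, and its difference between genes was not tested. In Snd1, 37 of 87 windows passed in Sham offspring, 28 of them higher, and 34 in PM offspring, 23 of them higher. In Mecom, 50 of 113 passed in Sham offspring, 39 of them lower, and 71 in PM offspring, 67 of them lower. The median difference over the 278 windows was -0.226 points for OVA in Sham (-0.414 over all tested windows) and -0.925 for OVA in PM (-1.03 over all).

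The remaining genes have few windows, so their counts are given beside the same backgrounds (35.6% and 44.1%) and nothing is read from them. For OVA in Sham passing windows numbered 5 of 27 in Rnf157, 3 of 11 in Gpsm1, 2 of 24 in Gm13849, 1 of 7 in Slc15a2 and 0 of 9 in Cdk5rap1, where limma gave 0 windows at an unadjusted p under 0.05 as well. For OVA in PM they numbered 8, 4, 6, 2 and 1 in the same order. The second window of Snd1 was 20.6 points higher in Sham-OVA (mean 34.6%, median 42.3%, 4.52% to 53.5%) than in Sham (mean 14.04%, median 5.35%, 2.85% to 53.6%) but did not pass, and the groups overlapped.

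Maternal PM2.5 called no window of the 7 genes. The limma counts were 0 of 278 for PM without OVA, 0 for PM with OVA and 0 for the interaction, as over all tested windows (background 0 in each). At an unadjusted limma p under 0.05 there were 14 of 278 windows for PM without OVA (background 5.79%). There were 25 for PM with OVA (background 5.96%) and 23 for the interaction (background 7.40%). As shares of the 278, the first lies below its background and the others above theirs, and this was not tested.

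Markers of other cell types moved with OVA. Mean methylation over 62 windows of 12 leucocyte genes, relative to all windows, was -1.98 to -1.03 points in Sham against -4.22 to -3.33 in Sham-OVA, and -2.32 to -1.26 in PM against -3.65 to -2.74 in PM-OVA. Over 64 windows of 10 resident lung genes it was -9.21 to -8.02 in Sham against -6.32 to -5.32 in Sham-OVA, and -8.90 to -7.48 in PM against -6.35 to -5.14 in PM-OVA. Their part in the Mecom and Rnf157 DMRs was not tested. Genes of the machinery that silences repeats, such as Trim28, Setdb1 and the Dnmt genes, had 2 DMRs for OVA in Sham, both higher, and 0 for OVA in PM among 183 windows of 13 genes (1.09% and 0%, near the backgrounds above). At an unadjusted p under 0.05 limma counted 66 (36.1%, background 45%) and 59 (32.2%, background 51.4%) of them. Relative to all windows their mean methylation was -0.575 to -0.0638 points in Sham against -0.0921 to 0.862 in Sham-OVA, which overlapped, and -0.461 to -0.278 in PM against 0.262 to 0.918 in PM-OVA, which did not. Without that reference the list's mean was 69.04% in PM and 69.05% in PM-OVA, while the mean of all windows was 69.4% and 68.4%. Also without it, the leucocyte list did not overlap in either arm (64.2% to 66.0% in OVA-challenged against 66.6% to 68.8% in unchallenged libraries), and the resident lung list overlapped in PM offspring (59.8% to 62.3% in PM against 61.7% to 63.2% in PM-OVA).

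A single library stood apart. Sham replicate 1 had values in 1224 of the 1230 Y chromosome windows, against 29 to 46 in the other 28 libraries, and 5.95% of its X chromosome windows were under 10% methylation, against 0.268% to 0.488%. Without it the DMR counts of the 7 genes remained 2 and 2, no most variable window was called, and leaving out any 1 library kept r between the Snd1 window and its second window at 0.726 to 0.809. All libraries had a value in 258952 to 260135 windows. Which libraries shared a dam or litter is not given in the sources used here, so p-values measure the spread between these libraries.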

How the data were processed

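Enzymatic methyl-sequencing reads were trimmed (Trim Galore), then aligned to GRCm38 and scored for methylation (DRAGEN) by the authors. They deposited percent methylation for windows of 100 CpG cytosines with at least 10 informative CpGs, each annotated with a gene. How reads with several placements were handled is not given in the sources used here. Coverage per window is not in the values, so no counting error is given.

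The 7 genes, gene lists and tests were chosen with earlier results of these data known. For each gene, the window of highest pooled within-group SD and up to 5 windows on either side were described, with all called windows and the closest window elsewhere.

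Percentages were transformed to log2((percent + 1)/(100 - percent + 1)) and fitted with limma 3.58.1 (R 4.3.3), using 4 groups and Benjamini-Hochberg adjustment over 259167 windows with at least 3 values in each group. The fit was tested on simulated data. Spread and correlations used 100000 permutations, group differences of single windows exact 2-sided permutation tests, and 95% intervals the pooled SD (Python 3.11.15, numpy 2.4.6, pandas 2.3.3, scipy 1.17.1). Replicate numbers of the sample titles did not pair libraries, and pairing by the numbers in the library names was not tested.

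Sequence came from RefSeq GRCm38.p6, and direct repeats were found by exact words, with Biopython 1.88 for alignments. The reference strain is C57BL/6J. Figures used matplotlib 3.10.9.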

Additional observations from a re-analysis of the deposited data

Results flagged for a closer look

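Within the Sham group, 1 library lay far from the others at the most variable window of Gpsm1. It stood at 72.9%, whereas the next was at 56.8% and the lowest of the 7 at 47.7%, a gap of 0.638 of the group's range, past the limit of Dixon's test. This was the only one of 36 such checks past its limit (the 7 most variable windows and the 2 DMRs in 4 groups), and about 1 in 20 is expected by chance. The highest library of each other group at Gpsm1 was at 73.7% to 75.9%.

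Sham replicate 1 had a value in 1224 Y chromosome windows, data outside the comparisons, although the offspring are described as female, and 5.95% of its X windows under 10% methylation against 0.268% to 0.488% in the others. The cause was not tested.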

How the results depend on the processing

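No most variable window was called in any contrast under any of the 39 alternative settings, where the lowest adjusted p was 0.0850. Of the 28 differences, 12 changed sign in some setting, none of them above 3.15 points. The Cdk5rap1 difference for OVA in PM ran from -3.99 to 1.43 points when 1 library was left out.

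DMR counts among the 278 windows followed the thresholds. With a minimum of 5 points they were 20 (OVA in Sham) and 22 (OVA in PM), with no minimum 98 and 126, and with the study's adjusted p under 1e-06 they were 0 and 1. Leaving out 1 library gave 2 to 4 for OVA in Sham, with 4 without Sham replicate 5 or Sham-OVA replicate 2. For OVA in PM it gave 1 to 2, with 1 without PM replicates 2 or 5 or PM-OVA replicates 1, 3, 5, 7 or 8. The replicate block gave 1 for OVA in PM and 2 for OVA in Sham. By the replicate numbers of the sample titles, the 42 pairs of the same number had r of -0.0705 to 0.130. Of the 29 libraries, 9 were closest to a library of their own number. In the OVA groups these numbers differ in part from those in the library names, by which pairing was not tested. The block changed no other call.

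Neighbour relations with an adjusted permutation p under 0.05 numbered 7, and 4 on the log ratio scale, where Rnf157, Gpsm1 and Cdk5rap1 missed it (0.0647 each). Their r was 0.447, 0.442 and 0.408 on that scale, against 0.545, 0.480 and 0.412 on the percent scale. Leaving out 1 library gave 4 to 7, with 4 without Sham replicate 7. The 2 relations at Snd1 and those at Gm13849 and Slc15a2 passed in all 30 settings, Rnf157 in 28, Gpsm1 in 17 and Cdk5rap1 in 8. Between genes the count was 0, and 0 to 1 when 1 library was left out. No test of spread passed in any setting. On the log ratio scale, Snd1 and Gpsm1 had their second window as the most variable one, leaving 5 of 7 choices as they were.

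The values carry no depth, so the counting error in each is unknown. The cause of these changes was not tested.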
